A study of Sus scrofa with 9 samples.

Results

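Genes of the egg coat and egg surface were followed in pig (Sus scrofa) oocytes: ZP2, ZP3 and ZP4, which encode the proteins of the pig zona pellucida, CD9 and IZUMO1R of the egg membrane, and ASTL of the cortical granules. They were chosen by symbol, and all 6 were found once each among the 23507 genes of the count table. Of the 6, 5 passed the filter on low counts, which kept 15012 genes in all, and CD9 did not. The libraries were made from polyadenylated RNA of oocytes at metaphase II (MII), the arrested stage at which a mature egg awaits fertilisation. All oocytes were labelled WT and were matured in culture inside their cumulus cells for 44 to 48 h. In the heat stress plus L-Asp group, oocytes at the germinal vesicle stage spent 24 h at 41.5 °C with L-Asp in the medium and were then returned to 38.5 °C. L-Asp commonly denotes L-aspartic acid, an amino acid, and the labels list 0.5, 1.0 and 1.5 mmol/L without naming the concentration that was sequenced. The heat stress group had the same 24 h at 41.5 °C without L-Asp, and the control group stayed at 38.5 °C. There were 3 libraries in each group, and 25 oocytes are stated for a group, with no number for a library. The labels do not tell whether libraries of the same group are separate animals or cultures, and p-values cover the spread between these libraries alone.

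The zona pellucida is a shell of glycoprotein filaments that the growing oocyte secretes around itself, and sperm must bind and cross it to reach the egg membrane. In pig the filaments are built from ZP2, ZP3 and ZP4, and complexes of ZP3 with ZP4 bind sperm. At the membrane, IZUMO1R (also called JUNO) is the lipid-anchored receptor for IZUMO1 of the sperm, and the tetraspanin CD9 is needed for fusion in mouse. After fertilisation the cortical granules release ovastacin, the protease encoded by ASTL, which in mouse cleaves ZP2 and so closes the zona to further sperm. The zona genes are transcribed in growing oocytes, and the mature egg carries the RNA left from that period. Because cDNA was primed on the poly(A) tail, transcript amount and tail length cannot be told apart, nor can fewer cells with a transcript and less of it per cell.

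Library totals were 41693395 to 49008681 counts in heat stress plus L-Asp, 46198885 to 53327419 in heat stress and 54965064 to 58361475 in control. The control libraries differed from each other by little more than sampling of fragments would give. Their index of dispersion (squared difference over that of independent counts) was 5.19 to 5.22, against 79.5 to 84.9 between the L-Asp libraries and 109 to 119 between the heat stress libraries. They were therefore averaged and counted as 1 sample, so 7 libraries entered each test, and the lone control was assumed to vary like the heated groups. Low counts in control piled up at 4 and 8 (in control replicate 1, 604 genes had 4 counts, 330 had 3 and 216 had 5), so 1 fragment added about 4 counts there. The pile at 4 was weaker in the heated libraries (in heat stress replicate 1, 263 genes had 4 counts, 210 had 3 and 123 had 5). The same 4 counts per fragment were assumed for them. Mitochondrial genes took 5.30% to 9.47% in heat stress plus L-Asp, 3.09% to 14.5% in heat stress and 10.0% to 10.1% of the counts in control. Of the 12 oocyte markers in the table, all 12 passed the filter, with summed levels of 17133 to 19325 CPM in heat stress plus L-Asp, 13586 to 17233 CPM in heat stress and 29655 to 29898 CPM in control. By group mean, the largest single part of that sum was BTG4, a regulator of maternal RNA decay. It averaged 7384 CPM with L-Asp, 7322 CPM after heat stress and 15797 CPM in control. Of the 12, 4 lay above 0 for L-Asp over control (median log2 fold change -0.26) and 5 for heat stress over control (-0.36). Over all tested genes these medians were 0.0067 and 0.0016. CPM is the count scaled to a common library total by the trimmed mean of M values (TMM).

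The relative amounts of the zona transcripts were not the same in heated and control libraries. ZP4 and ZP3 lay higher in the heated oocytes, most of all with L-Asp, while ZP2 stayed near its control level. None of these differences passed the test across all genes when the control counted as 1 sample. The deposited FPKM values, which are divided by transcript length, allow levels of different genes in a library to be set side by side. They do not follow the TMM scaling of the CPM values, so differences between groups are better read from CPM. For ZP2, every L-Asp library was above control by FPKM. By CPM, L-Asp replicate 2 was below control (904 against 915 to 923 CPM). With L-Asp, ZP4 measured 715 to 983 FPKM, ZP2 345 to 396 FPKM and ZP3 180 to 459 FPKM. In heat stress, ZP4 measured 397 to 778 FPKM, ZP2 299 to 348 FPKM and ZP3 108 to 216 FPKM. In control, ZP4 and ZP2 were nearly level at 325 to 329 and 320 to 322 FPKM, and ZP3 was at 82.1 to 86.8 FPKM. ZP4 ranked above ZP2 in all 9 libraries, by a wider margin in the heated ones, and ZP3 ranked above ZP2 in heat stress plus L-Asp replicate 3 alone. Among all genes of a library ordered by FPKM, ZP4 held places 50 to 68 with L-Asp, 57 to 107 after heat stress and 125 to 126 in control. ZP2 held places 114 to 127, 122 to 149 and 128 to 129 in the same groups, and ZP3 94 to 247, 206 to 488 and 537 to 568.

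**Figure D1:**
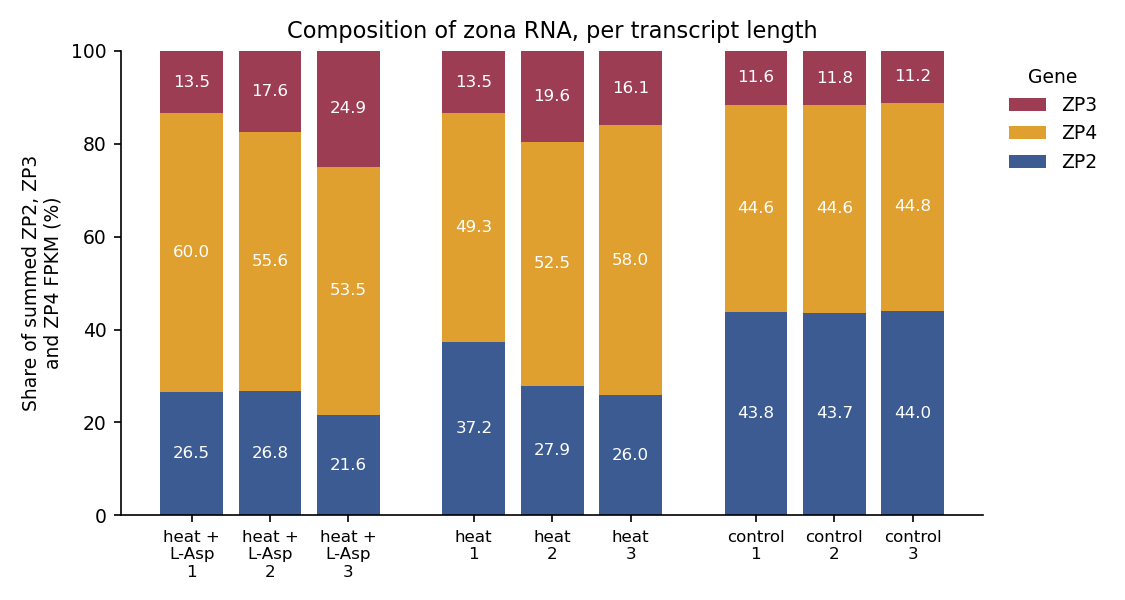
Share of ZP2 (bottom), ZP4 (middle) and ZP3 (top) in the summed FPKM of the 3 zona genes, in percent, 1 bar per library and replicate numbers under the bars. The ZP2 segment is shorter in all 6 heated libraries (21.6% to 37.2%) than in the control libraries (43.7% to 44.0%).

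The make-up of the zona RNA within a library does not depend on how libraries are scaled to each other. ZP2 made up 26.5%, 26.8% and 21.6% of the summed zona FPKM in heat stress plus L-Asp replicates 1 to 3. Its share was 37.2%, 27.9% and 26.0% in heat stress replicates 1 to 3, and 43.8%, 43.7% and 44.0% in the control libraries. All 6 heated libraries lay below the controls, and heat stress replicate 1 lay nearest to them. The ZP3 share was 18.7% ± 5.81 with L-Asp and 16.4% ± 3.06 after heat stress (SD, n = 3 each), against a mean of 11.5% in control. The ZP4 share was 56.4% ± 3.35 with L-Asp and 53.3% ± 4.37 after heat stress (SD, n = 3 each), against a mean of 44.6% in control. Both shares were above every control library in 6 of 6 heated libraries. Control counted as 1 sample, so this difference from control has no test of its own. The 3 shares of a library are parts of 1 whole, so the lower ZP2 share and the higher ZP3 and ZP4 shares are not separate results. Such shares were not worked out for other sets of genes, so how common such a separation from control is was not established. Among single tested genes by CPM, 13.6% were higher and 19% lower in every heat stress library than in every control library. With L-Asp these figures were 14.2% and 19.6%. Between the heated groups the shares overlapped. Exact two-sided permutation tests between the heated groups gave p = 0.3 for ZP2, p = 0.6 for ZP3 and p = 0.4 for ZP4, where 3 libraries against 3 cannot go below 0.1.

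Per length, the ratio of ZP4 to ZP2 was 2.07 to 2.48 with L-Asp, 1.33 to 2.23 after heat stress and 1.02 in each control library. The ratio of ZP3 to ZP2 was 0.509 to 1.16 with L-Asp, 0.361 to 0.700 after heat stress and 0.255 to 0.269 in control. The ratio of ZP4 to ZP3 was 2.14 to 4.46 with L-Asp, 2.68 to 3.67 after heat stress and 3.79 to 3.99 in control. For that last ratio, 5 heated libraries lay below the controls and 1 above, and the 2 heated groups overlapped.

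**Figure D2:**
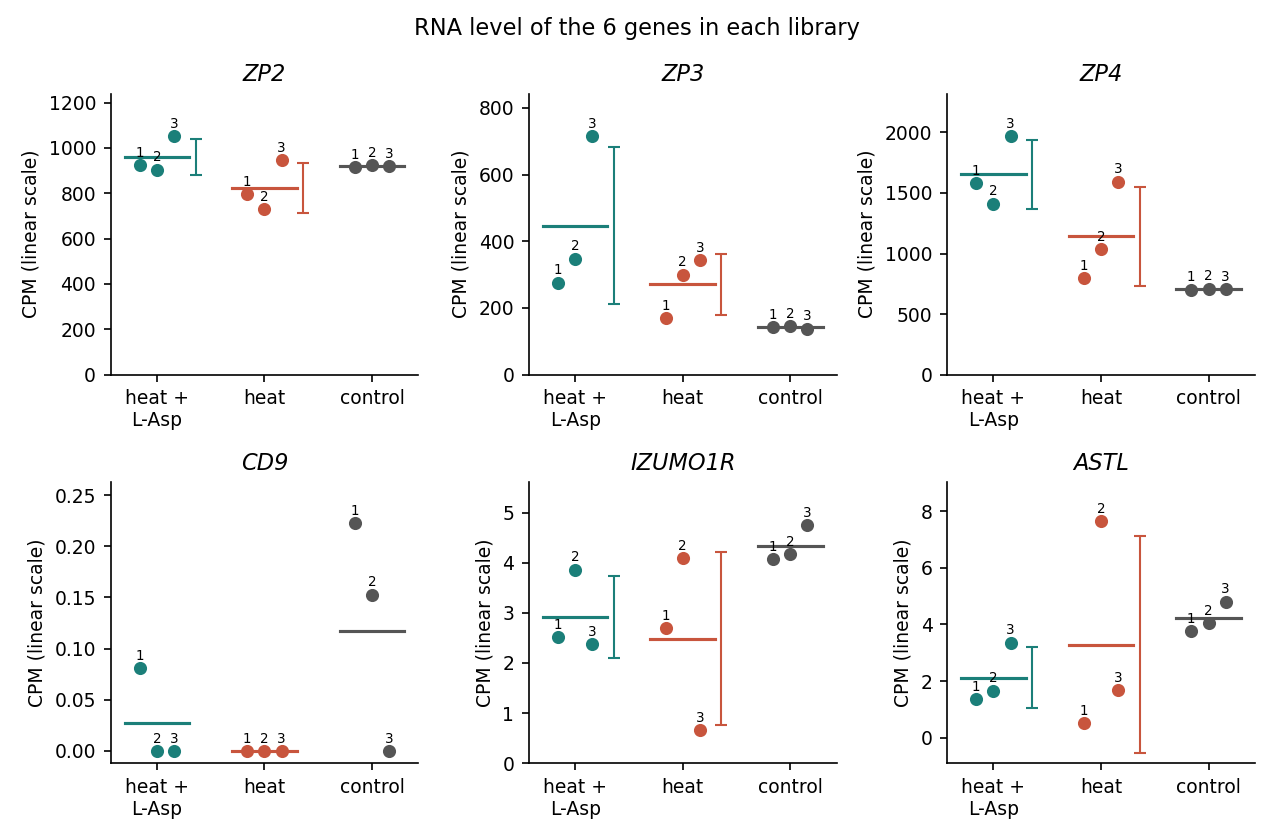
CPM on a linear axis for each of the 6 genes in heat stress plus L-Asp, heat stress and control, 1 point per library with its replicate number, a line for the group mean and, beside the heated groups (not for CD9), a bar of ± 1 SD (n = 3). ZP3 and ZP4 lie above every control library in all 6 heated libraries, ZP2 does not separate the groups, and CD9 is at or near 0 throughout. Of all tested genes, 13.6% are higher in every heat stress library than in every control library, and 14.2% in every L-Asp library.

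ZP2 (ENSSSCG00000007851, chromosome 3, 24863730 to 24877522, plus strand, build not given in the sources used here) encodes the zona protein that ovastacin cleaves in mouse. It measured 924, 904 and 1051 CPM in heat stress plus L-Asp, 796, 730.4 and 946 CPM in heat stress, and 915, 923 and 919 CPM in control. The 3 groups overlapped, with 2 heat stress libraries below control and 1 above. It was also the zona gene of smallest spread, at 8.33% (L-Asp) and 13.4% (heat stress) of the mean. Its last 886 bases overlap LDAF1, a gene of the opposite strand, and the library preparation does not mark strand. LDAF1 itself measured 2.23 to 65.2 CPM over the 9 libraries, far less than ZP2.

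ZP3 (ENSSSCG00000007691, chromosome 3, 9934761 to 9944941, minus strand) encodes the partner with which the other zona proteins assemble into filaments. It measured 276, 348 and 714 CPM in heat stress plus L-Asp, 169, 300.2 and 344 CPM in heat stress, and 142, 146 and 138 CPM in control. Every heated library was above every control library, and the heated groups overlapped. Heat stress plus L-Asp replicate 3 stood highest, and heat stress replicate 1 was closest to control. Of all tested genes, 13.6% were higher in every heat stress library than in every control library, and 14.2% in every L-Asp library. The share higher in all heated libraries at once was not counted.

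ZP4 (ENSSSCG00000010141, chromosome 14, 53577135 to 53584546, plus strand) encodes the zona protein that takes part with ZP3 in sperm binding in pig. It measured 1581, 1412.5 and 1967 CPM in heat stress plus L-Asp, 796, 1035 and 1594 CPM in heat stress, and 702, 711 and 705 CPM in control. Heat stress replicate 3, at 1594 CPM, was inside the range of the L-Asp libraries, while heat stress replicate 1, at 796 CPM, was the heated library nearest to control. Summed over the 3 zona genes, the level was 2664 to 3733 CPM with L-Asp, 1760 to 2883 CPM after heat stress and 1760 to 1780 CPM in control. Heat stress replicate 1 thus carried the same total as control with less ZP2 and more ZP4 and ZP3. The order of ZP4 in heat stress (796, 1035 and 1594 CPM) was also that of the mitochondrial share (3.09%, 5.18% and 14.5%) in replicates 1 to 3. With L-Asp that order was not seen, with mitochondrial shares of 5.30%, 9.47% and 9.29%. The part of this share in the ZP4 values was not tested.

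For heat stress against control, the comparison that asks what heat early in maturation left behind, edgeR's quasi-likelihood test called 0 of 15012 genes (0% background), and so 0 of the 5 tested members. The fitted log2 fold change was 0.93 ± 0.54 (SE, 1.91-fold) for ZP3 and 0.69 ± 0.38 (1.62-fold) for ZP4, with adjusted p = 1 for both in edgeR's test. For ZP2 it was -0.16 ± 0.26 (SE, adjusted p = 1), and it was 0.02 when libraries were scaled by total counts alone. Groups were fully apart with heat stress higher for 2 of the 5 tested members, ZP3 and ZP4, which 13.6% of all tested genes also showed. Among the 1853 genes with a mean of at least 100 CPM, 38 had a larger log2 fold change than ZP3 and 78 a larger one than ZP4. At unadjusted p under 0.05 the test held 579 genes (3.86%, with 1.96% in the higher direction) and no member. DESeq2 called 183 genes (0.825%) and edgeR with the controls as 3 replicates called 433 (2.88%, with 1.76% in the higher direction), in neither case a member. Without heat stress replicate 3, the log2 fold change of ZP4 was 0.37.

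The effect of the amino acid on heated oocytes is addressed by setting the L-Asp libraries against those of heat stress alone. Again 0 of 15012 genes (0% background) and 0 of the 5 tested members passed (edgeR, quasi-likelihood test). ZP3 had a log2 fold change of 0.72 ± 0.36 (SE, 1.65-fold, adjusted p = 0.738) and ZP4 of 0.53 ± 0.26 (SE, 1.45-fold, adjusted p = 0.738). That of ZP2 was 0.22 ± 0.19 (SE, adjusted p = 0.865). No member was fully apart between the heated groups in either direction, against 6.31% of tested genes that were higher and 5.54% that were lower in every L-Asp library. Unadjusted p-values were 0.0699 for ZP3 and 0.0641 for ZP4, and 993 genes (6.61%, with 3.52% in the higher direction) were under 0.05. DESeq2 called 179 genes (0.807%) and edgeR with 9 libraries 2 genes (0.0133%), none of them a member. Without heat stress plus L-Asp replicate 3, the log2 fold change of ZP3 was 0.20, and without heat stress replicate 3 that of ZP4 was 0.86.

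The comparison of the L-Asp libraries with control combines heat and L-Asp, and here ZP3 and ZP4 had their largest fitted differences. ZP3 measured 446 ± 235 CPM with L-Asp (SD, n = 3) and 142 CPM in control, a log2 fold change of 1.65 ± 0.56 (SE, 3.14-fold). ZP4 measured 1653 ± 284 CPM with L-Asp (SD, n = 3) and 706 CPM in control, a log2 fold change of 1.23 ± 0.40 (SE, 2.34-fold). By edgeR on 7 libraries their unadjusted p-values were 0.0132 and 0.0100, and neither passed (adjusted p = 1), as for 0 of 15012 genes (0% background). At unadjusted p under 0.05 the test held 484 genes (3.22%), with 1.63% in the higher direction, 2 of them members. With the controls as 3 replicates both were called (edgeR, adjusted p = 0.0384 for ZP3 and adjusted p = 0.0256 for ZP4), among 269 genes (1.79%), 174 of them higher (1.16%). In that fit the near-identical control libraries count as independent samples. DESeq2 on 7 libraries called 64 genes (0.288%) and gave adjusted p = 0.169 for ZP3 and adjusted p = 0.177 for ZP4. Of the 1853 genes with at least 100 CPM, 2 had a larger log2 fold change than ZP3 and 10 a larger one than ZP4. ZP2 measured 960 ± 80.0 CPM with L-Asp (SD, n = 3) and 919 CPM in control, a log2 fold change of 0.06 ± 0.27 (SE, adjusted p = 1).

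**Figure D3:**
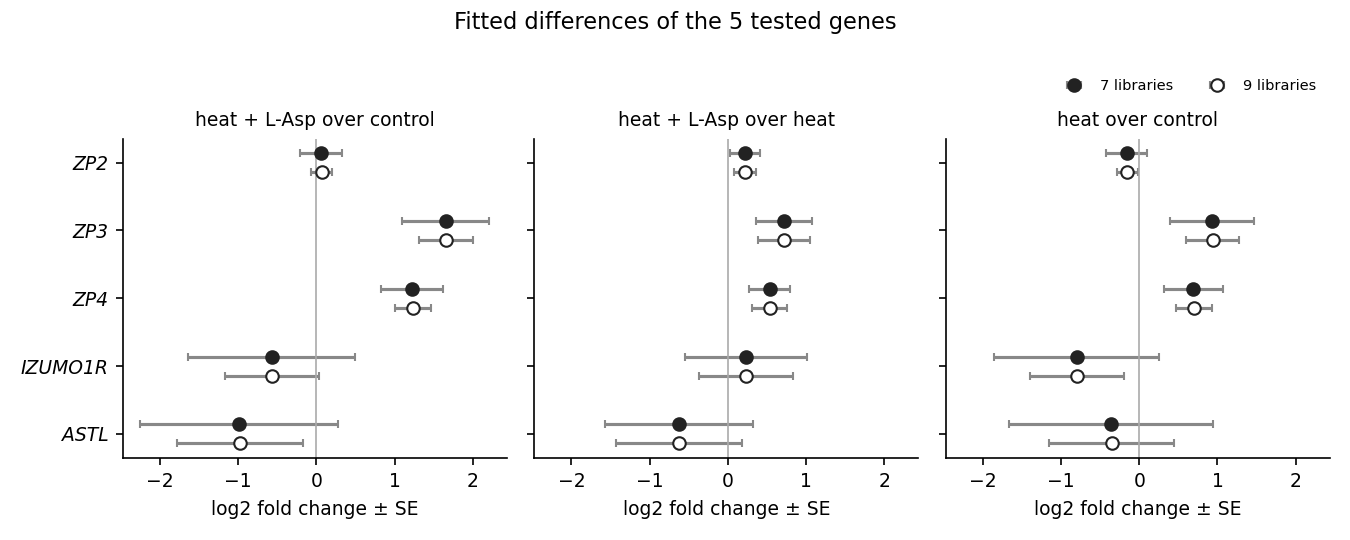
Log2 fold change with its SE for the 5 tested genes in the 3 comparisons, from edgeR with the averaged control (filled, 7 libraries) and with the controls as 3 replicates (open, 9 libraries). ZP3 and ZP4 lie right of 0 in each comparison, largest for heat stress plus L-Asp over control at 1.65 and 1.23, and the intervals of IZUMO1R and ASTL are wide.

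The 3 comparisons share their libraries in pairs, so the values of a gene in them are not independent. Side by side, ZP3 had log2 fold changes of 0.93 (heat stress over control), 0.72 (L-Asp over heat stress) and 1.65 (L-Asp over control), and ZP4 had 0.69, 0.53 and 1.23. For both genes the order of the group means was heat stress plus L-Asp, then heat stress, then control. The neighbours heat stress plus L-Asp and heat stress did not differ beyond their spread, and neither did heat stress and control in the fit of 7 libraries. For ZP2 no order held beyond the spread.

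At the egg membrane, IZUMO1R RNA was scarce (ENSSSCG00000014952, chromosome 9, 26517292 to 26520860, plus strand). It measured 2.51, 3.86 and 2.37 CPM in heat stress plus L-Asp, 2.69, 4.09 and 0.661 CPM in heat stress, and 4.07, 4.18 and 4.75 CPM in control. The L-Asp libraries were all below control, as were 19.6% of tested genes, while heat stress replicate 2 was inside the control range. The low value of heat stress replicate 3 rested on 34 counts, about 8 fragments at the assumed 4 counts each. Its exact Poisson 95% interval, for counting error only and at 4 counts per fragment, was 0.269 to 1.23 CPM, below the interval of 1.84 to 3.76 CPM for heat stress replicate 1. Log2 fold changes were -0.80 ± 1.05 for heat stress over control, 0.23 ± 0.78 for L-Asp over heat stress and -0.57 ± 1.06 for L-Asp over control (SE). Adjusted p-values were 1, 0.988 and 1 (edgeR). Without heat stress replicate 3 the L-Asp comparison lay at -0.22.

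CD9 (ENSSSCG00000022230, chromosome 5, 64420182 to 64460304, minus strand) was at the limit of detection in every group. It had 4, 0 and 0 counts in heat stress plus L-Asp, 0 in each heat stress library, and 11, 8 and 0 counts in control, at most about 3 fragments. In the heat stress libraries a count of 0 allows up to 0.233 to 0.243 CPM (3 fragments of 4 counts, for counting error only). Per length the highest value was 0.113 FPKM, in control replicate 1, so no fold is given. Whether the gene model of the table covers the CD9 transcripts of pig oocytes was not checked, so these counts do not show that the oocytes lacked CD9 RNA. Of the other tetraspanins in the list of egg surface genes, CD81, which acts beside CD9 in mouse eggs, measured 9.34 to 21.1 FPKM with L-Asp, 3.20 to 12.0 FPKM after heat stress and 12.6 to 13.6 FPKM in control. CD63, a tetraspanin of endosomes, measured 31.7 to 40.7 FPKM with L-Asp, 36.1 to 60.8 FPKM after heat stress and 19.3 to 20.1 FPKM in control. CD151 had at most 0.672 FPKM.

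ASTL, the cortical granule protease (ENSSSCG00000008126, chromosome 3, 47059040 to 47070664, plus strand), varied most of the tested members within heat stress, at 117% of its mean (SD), while with L-Asp it varied by 50.9% and ZP3 by 52.7%. It measured 1.36, 1.66 and 3.36 CPM in heat stress plus L-Asp, 0.506, 7.66 and 1.67 CPM in heat stress, and 3.77, 4.04 and 4.81 CPM in control. Heat stress replicate 2 was the highest of the 9 libraries and replicate 1 the lowest, 15.1-fold apart. Their exact Poisson 95% intervals, at 4 counts per fragment, were 6.20 to 9.31 CPM and 0.178 to 1.06 CPM and did not overlap. The L-Asp libraries were all below control, as were 19.6% of tested genes. Log2 fold changes were -0.36 ± 1.30 for heat stress over control, -0.63 ± 0.94 for L-Asp over heat stress and -0.99 ± 1.26 for L-Asp over control (SE), with adjusted p = 1, 0.959 and 1 (edgeR). The direction turned with single libraries. Without heat stress replicate 1 heat stress over control lay at 0.15, and without heat stress replicate 2 L-Asp over heat stress lay at 0.96. Per length, IZUMO1R and ASTL were in a range of 0.741 to 5.25 FPKM and 0.356 to 6.12 FPKM over all libraries, and their order changed between libraries.

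For each tested member, the gene most like it was sought by the root mean square difference of centred log2 CPM over the 7 libraries, among about 5757 genes with a symbol and at least 10 CPM. The closest to ZP2 were DENND11 (0.033) and CNOT9 (0.065), to ZP3 KLHL22 (0.18) and ARF5 (0.20), and to ZP4 PABPN1 (0.10) and AP3B2 (0.13). IZUMO1R was closest to PANX1 (0.22) and EXOSC7 (0.33), and ASTL to CDC25B (0.56) and TSHZ2 (0.67). ZP3 and ZP4 differed from each other by 0.33, which made ZP4 the 32nd closest gene to ZP3 and ZP3 the 132nd closest to ZP4. ZP2 differed by 0.44 from ZP4 and by 0.64 from ZP3. These distances describe 7 libraries and carry no test.

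Other genes of the egg surface and of fertilisation were taken from 6 lists, and 0 of their tested genes passed in any of the 3 comparisons (edgeR, against 0 of all 15012 genes). For heat stress over control, 3 of 6 regulators of zona gene transcription lay above 0 with a median log2 fold change of 0.06. The figures were 1 of 4 for other zona and perivitelline proteins (median -0.13), 6 of 11 for egg surface proteins (0.11), 10 of 25 for synthesis of the glycosylphosphatidylinositol (GPI) anchor that holds IZUMO1R (-0.13), 7 of 19 for cortical granule transport (-0.24) and 6 of 16 for calcium and zinc handling at egg activation (-0.095). Over all genes 7525 of 15012 lay above 0, with a median of 0.0016. For L-Asp over heat stress, the counts were 3 of 6, 4 of 4, 5 of 11, 11 of 25, 12 of 19 and 8 of 16 in the same order, with medians of 0.0016, 0.38, -0.086, -0.16, 0.093 and 0.018. Over all genes 7350 lay above 0 with a median of -0.010. For L-Asp over control, 2 of 6, 2 of 4, 7 of 11, 10 of 25, 10 of 19 and 8 of 16 lay above 0, with medians of -0.25, 0.095, 0.029, -0.16, 0.056 and -0.089, beside 7582 of all genes and a median of 0.0067.

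**Figure D4:**
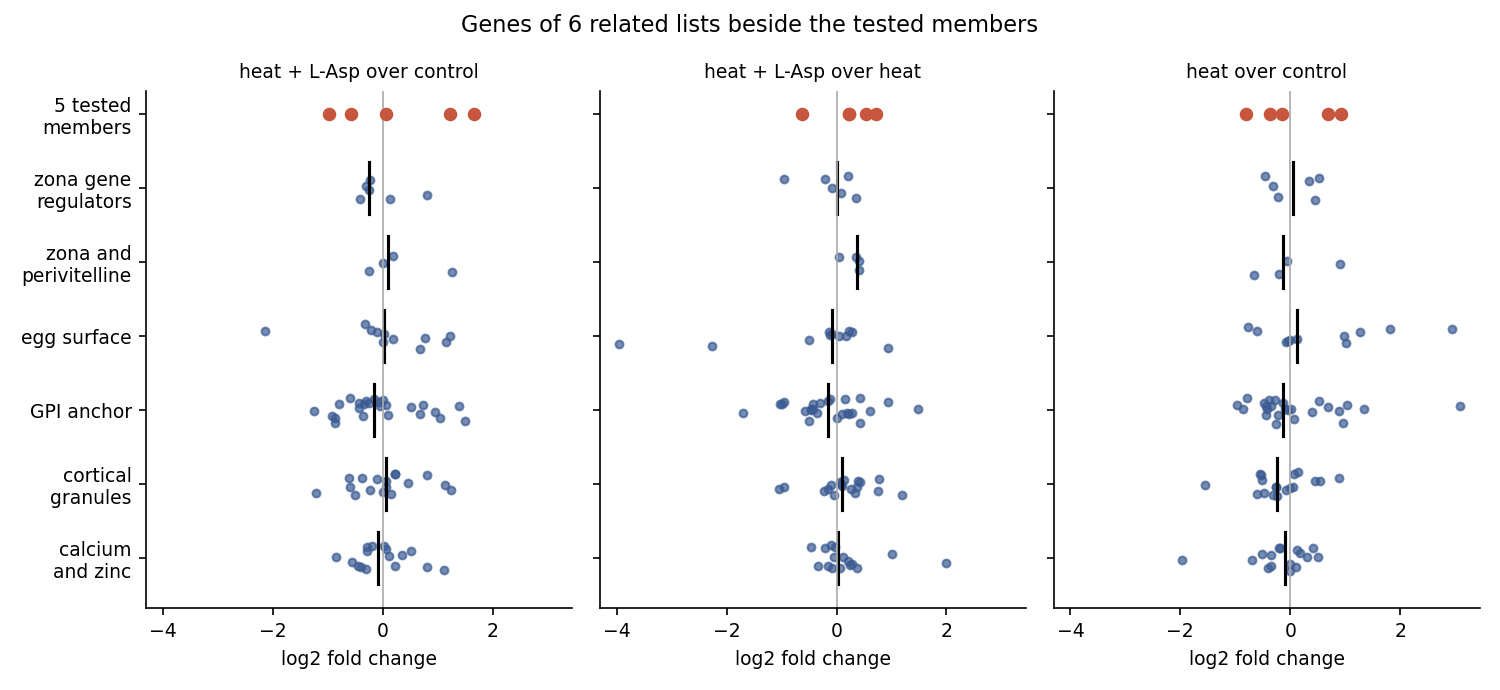
Log2 fold changes of the 5 tested members (top row) and of the tested genes of 6 related lists (1 point per gene, line at the list's median) in the 3 comparisons. STX4 and ALOX5 are not drawn where all libraries of a group are at 0. The list medians lie within 0.38 of 0. For heat stress plus L-Asp over control the members run from -0.99 (ASTL) to 1.65 (ZP3), with ZP4 at 1.23. Single list genes also lie far from their medians there, among them PIGP (1.50), PIGQ (1.39) and PIGH (-1.25).

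None of the regulators of zona gene transcription was called. LHX8, a transcription factor of young oocytes, measured 29.9 ± 5.05 CPM with L-Asp and 28.2 ± 5.97 CPM after heat stress (SD, n = 3 each), against 35.2 CPM in control. TAF4B, a subunit of the general transcription machinery in germ cells, measured 55.2 ± 3.69 and 64.0 ± 13.3 CPM in the same heated groups, against 50.3 CPM in control. FIGLA, which switches on the zona genes in mouse and was named here after its values were seen, measured 2.95 CPM with L-Asp, 5.70 CPM after heat stress and 3.95 CPM in control, and its log2 fold change was -0.95 for L-Asp over heat stress. NOBOX, another regulator of oocyte genes chosen in the same way, measured 5.87, 4.61 and 3.37 CPM in these groups, a log2 fold change of 0.80 for L-Asp over control. OOSP3 and OOSP2, oocyte-secreted proteins, exceeded the zona genes per length. OOSP3 measured 3645 to 4318 FPKM with L-Asp, 2404 to 4004 FPKM after heat stress and 4294 to 4373 FPKM in control, and OOSP2 1012 to 1437, 1148 to 1249 and 1106 to 1133 FPKM.

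Among egg surface proteins, the integrin chain ITGA6 measured 144 ± 14.2 CPM with L-Asp and 159 ± 10.4 CPM after heat stress (SD, n = 3 each), against 168 CPM in control. ITGA9 measured 31.2 ± 3.69, 25.5 ± 2.17 and 39.0 CPM in these groups. In GPI anchor synthesis, PIGP measured 21.9 ± 4.10 and 19.8 ± 5.69 CPM in the heated groups, against 7.74 CPM in control, with adjusted p = 1 in both comparisons with control (edgeR). DPM1, which makes the mannose donor of the anchor, measured 21.2 ± 5.97, 43.3 ± 22.2 and 22.2 CPM.

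Among genes of cortical granule transport and exocytosis, the membrane fusion protein SNAP23 measured 143 ± 12.6 CPM with L-Asp, 168 ± 15.9 CPM after heat stress and 123 CPM in control (SD, n = 3 for the heated groups). RAB27A, a small GTPase that moves cortical granules in mouse, measured 87.8 ± 18.7, 65.5 ± 6.72 and 94.3 CPM, and SPIRE1, an actin nucleator, 300.3 ± 33.6, 239 ± 12.6 and 288 CPM. ITPR1, the calcium release channel that opens at fertilisation, measured 29.4 ± 7.26 CPM with L-Asp, 37.1 ± 3.11 CPM after heat stress and 53.0 CPM in control. Its log2 fold change was -0.85 ± 0.36 (SE) for L-Asp over control, with unadjusted p = 0.0390 and adjusted p = 1 (edgeR).

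Markers of the cumulus and granulosa cells that surround the oocyte were also read in each library. Of 30 listed markers 24 were in the table and 17 passed the filter. PTX3 was at 0 in all libraries. Of the 17, 12 lay above 0 for heat stress over control, 5 for L-Asp over heat stress and 12 for L-Asp over control, and 0 were called (edgeR). At unadjusted p under 0.05, 4 of the 17 were higher after heat stress than in control and 5 with L-Asp than in control, beside 1.96% and 1.63% of all tested genes, and 0 were lower. Between L-Asp and heat stress, 1 was higher and 1 lower. The summed level was 1307 to 1350 CPM with L-Asp, 1339 to 1691 CPM after heat stress and 1278 to 1318 CPM in control. Most of it came from RGS2, at 805 to 1321 CPM over all libraries and 925 to 954 CPM in control. The cells that this RGS2 RNA came from were not tested, so the sum is not a measure of cumulus RNA. CYP11A1, the first enzyme of steroid synthesis in granulosa cells, measured 1.32, 7.80 and 0.687 CPM with L-Asp, 5.98, 6.37 and 15.1 CPM after heat stress, and 0, 0 and 0.115 CPM in control. GJA1, the gap junction protein of cumulus cells, measured 5.03, 1.60 and 7.03 CPM with L-Asp, 6.97, 7.15 and 13.4 CPM after heat stress, and 0.668, 0.191 and 1.56 CPM in control. Both were higher in all 6 heated libraries than in control, as were ZP3 and ZP4, and the share of all genes that did so was not counted. CYP11A1 and GJA1 were not picked by a rule set beforehand. Other tested markers lay below 0 for heat stress over control, among them GATA4 (-0.28) and PGR (-0.49). The part of cumulus RNA in the values of the members was not tested. Markers of theca and stroma summed to 4.75 to 12.5 CPM over all libraries and those of blood and immune cells to 0.370 to 5.24 CPM. Endothelial markers summed to 23.6 to 42.5 CPM, mostly from TEK.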

How the data were processed

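RNA-seq of 9 libraries, grouped by sample titles, was used. The cDNA was full-length, oligo(dT)-primed, PCR-amplified, fragmented and read from both ends, per the labels' protocols, with no strand mark and no molecular identifiers described, so intervals cover counting error only. The authors deposited whole-number counts and FPKM values per gene and library, per the file headers. HISAT2 2.2.1, edgeR, DESeq2, StringTie 2.1.6 and cutadapt 1.9 are listed, with no role, per the submitters' processing notes. Neither the build nor the way of counting is given in the sources used here. A further 6 columns of per-sample values were not used.

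Counts were used as deposited with edgeR 4.0.16 (R 4.3.3): filterByExpr on 9 libraries, TMM, glmQLFit with robust = TRUE, 1 mean per group and 4 residual degrees of freedom. The rounded mean of the control libraries entered as 1 library. Each control library's own CPM used the factor of that mean. P-values were Benjamini-Hochberg adjusted over all genes tested, with calls under 0.05. DESeq2 1.42.0 was an alternative. SEs come from the F statistic. FPKM served only for levels per length and shares.

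All 6 members were named, with the 2 genes most like each, and from each list up to 3 genes of smallest p with at least 10 CPM, of which the text gives a part. Members, lists, design and rules were chosen with earlier results of these data known. No sequence of the members was used here.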

Additional observations from a re-analysis of the deposited data

How the results depend on the processing

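Over 15 log2 fold changes of the 5 tested members and 320 alternative values of them, 309 kept their direction and their side of the threshold, 4 were called where the main fit made no call and 7 turned direction. The 4 were ZP3 and ZP4 for L-Asp over control with the controls as 3 replicates (1.66 and 1.23) and with a replicate block added to that same 9-library fit (1.52 and 1.21, adjusted p = 0.0227 and adjusted p = 0.0175, edgeR), which gave 2 members called each time, against 0 otherwise. Same-numbered libraries were not paired by this check: their deviations from the group means correlated at -0.024 to 0.0518 across genes, and not every library correlated best with its own number. Turned values were 0.021 for ZP2 with total counts only (heat stress over control, where the median of all genes lay at 0.19) and 0.18 for ASTL with the replicate block (L-Asp over heat stress). Leaving out single libraries gave -0.0085 (without L-Asp replicate 3) to 0.11 for ZP2 in L-Asp over control and -1.95 to 0.15 (without heat stress replicate 1) for ASTL in heat stress over control. In L-Asp over heat stress it gave -1.13 to 0.96 (without heat stress replicate 2) for ASTL and -0.22 (without heat stress replicate 3) to 0.80 for IZUMO1R, with -0.0087 without L-Asp replicate 2. The cause was not tested.

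Genes called for heat stress over control were 0 in the main fit, 433 with 9 libraries, 183 by DESeq2, 9 without a filter and 378 with 9 libraries and the replicate block, and 0 to 1 leaving out single libraries. For L-Asp over heat stress they were 0, 2, 179, 2 and 0 (the block there on the 6 heated libraries), 2 with the filter recomputed on 7 libraries, and 0 to 3. For L-Asp over control they were 0, 269, 64, 3 and 223, and 0 to 1. By counts not divided by length, the ZP2 share was 31.8% with L-Asp, 37.8% after heat stress and 52.0% in control, the ZP3 share 12.0% after heat stress and 8.04% in control, and the ZP4 share 39.9% in control. Counts divided by 4 and the fit of 6 heated libraries were added after seeing the data and changed no call. CD9 is limited by its low counts.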
